A study of Mus musculus with 6 samples.

Results

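Txnip, the arrestin-domain genes Arrdc3 and Arrdc4, and 7 genes tied to FOXO transcription factors were followed in 4T1, a metastatic carcinoma line from the mouse mammary gland. The other 7 were Ccng2, Trp53inp1, Sesn3, Foxo1, Foxo3, Irs2 and Pik3ip1. Every probe set that the platform annotation gives to exactly 1 of these symbols was kept. This gave 21 probe sets among the 34945 with 1 symbol and the 45037 on the array, and 10 of 18193 genes. The genes were proposed with the difference between the groups on these same arrays in view. Their differences are therefore given as a description: counts past a threshold stand beside the share of all probe sets, and nothing is read from them. One group of cells had been transduced with a control shRNA, and the other with a vector expressing an shRNA against NFAT1, the calcium-responsive transcription factor whose gene is Nfatc2. All cells grew adherent, passed 10 days of selection and were collected from culture, and labelled cRNA was made from 200 ng of their total RNA for Affymetrix arrays. There were 3 arrays per group, with the numbers 1 to 3. The labels name 1 NFAT1 shRNA vector without its sequence, and leave unstated if these were separate cultures, so the spread between arrays may be technical.

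Txnip encodes an alpha-arrestin that binds thioredoxin and limits glucose uptake. Its transcription is switched on by the glucose-sensing factor MondoA with its partner Mlx, and Arrdc4 answers to the same factors. FOXO factors are held in the cytoplasm when growth factors activate PI3K and AKT. When that signalling falls they enter the nucleus and activate genes of cell cycle exit, stress resistance and insulin signalling, among which Ccng2, Trp53inp1, Sesn3, Irs2 and Pik3ip1 are known targets.

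Values are log2 RMA signals, in which 1 unit is a 2-fold difference, with array medians from 5.42 to 5.48. Differences are NFAT1 shRNA minus control. Signals of different probe sets are not levels that can be set against each other. The arrays of a group were not alike: across all probe sets the correlation of NFAT1 shRNA 1 was 0.991 to 0.995 with the controls, but 0.986 and 0.985 with NFAT1 shRNA 2 and 3. Of the 6 probe sets of Nfatc2, 1439205_at had the largest difference, with 6.05, 6.18 and 5.91 on controls 1 to 3 and 5.15, 5.43 and 5.29 on NFAT1 shRNA 1 to 3. It was not past the threshold (adjusted p = 0.0707 with limma), and 1426032_at was higher by 0.35, so Nfatc2 gives no clear check of the labels. Of 8 epithelial markers, Epcam, Cdh1, Krt8, Krt18 and Krt7 read above 11 on all arrays, and 1, the basal keratin gene Krt5, lay below the array medians.

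Txnip had the largest difference of the 10 genes. On probe set 1415996_at the signal was 6.80, 8.58 and 8.002 on controls 1 to 3 and 8.79, 11.50 and 11.13 on NFAT1 shRNA 1 to 3. All NFAT1 shRNA arrays were above all controls, but NFAT1 shRNA 1 only by 0.21 over control 2, while the others were higher by at least 2.56. The control mean was 7.79 ± 0.91 and the NFAT1 shRNA mean 10.47 ± 1.47 (SD, n = 3), which differ by 2.68 ± 0.77 (SE), or 6.41-fold, at rank 4 of the 45037 probe sets. The other probe set, 1415997_at, read 5.01, 5.60 and 5.44 on the controls and 5.68, 7.40 and 6.98 on NFAT1 shRNA 1 to 3. The arrays stood in the same order, with a smaller difference of 1.34 ± 0.43 (SE). Its control mean of 5.35 was under the median of the arrays, a range in which RMA shrinks differences.

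The regulatory sequence upstream of Txnip and of Arrdc4 is shown because both genes are known to answer to MondoA, which binds E-box elements, and Txnip also to FOXO factors. RefSeq promoter windows on GRCm38.p6 were found for 9 of the 10 genes. The 250 bases before the start were searched on both strands for the E-box CACGTG, the forkhead motif GTAAACA, its variant CAAAACA, and a carbohydrate response element written as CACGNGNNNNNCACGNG. The last spelling was taken from what is known of the Txnip promoter itself, so finding it there is no result. Txnip lies on the plus strand at chr3:96557707-96557956 and Arrdc4 on the minus strand at chr7:68749239-68749488, and capitals mark the motifs found.
Txnip: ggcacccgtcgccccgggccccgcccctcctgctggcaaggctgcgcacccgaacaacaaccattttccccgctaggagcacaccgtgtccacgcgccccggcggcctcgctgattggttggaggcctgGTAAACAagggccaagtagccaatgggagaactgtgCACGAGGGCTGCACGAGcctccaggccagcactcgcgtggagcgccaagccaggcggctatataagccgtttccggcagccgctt
Arrdc4: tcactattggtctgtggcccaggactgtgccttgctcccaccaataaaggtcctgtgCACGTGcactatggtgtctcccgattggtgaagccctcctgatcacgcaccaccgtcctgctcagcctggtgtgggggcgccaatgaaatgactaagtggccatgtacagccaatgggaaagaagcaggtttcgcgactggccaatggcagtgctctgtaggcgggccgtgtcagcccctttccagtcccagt

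In Txnip the forkhead motif lay 121 to 115 bases before the start and the carbohydrate response element 85 to 69 bases before it. The 32851 windows of all genes held the forkhead motif in 3.17% and this form of the response element in 0.0457%, or 15 windows. In Arrdc4 the E-box lay 193 to 188 bases before the start, and Irs2 also had one, at 44 to 39 bases, where 6.02% of all windows hold it. The forkhead variant, found in 5.56% of all windows, was present in Ccng2 (16 to 10 bases before the start) and in Irs2 (37 to 31 bases before it). None of the motifs was found for Arrdc3, Sesn3, Foxo1, Foxo3 or Pik3ip1, and Trp53inp1 had no window. A match is a string of letters and not a measured binding site.

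Arrdc3 and Arrdc4, the other alpha-arrestins, were higher on NFAT1 shRNA 2 and 3 as well. Arrdc3, an adaptor for ubiquitin ligases that sends membrane receptors to degradation, was read by 1 probe set, 1454617_at. It gave 6.22, 6.34 and 6.13 on the controls and 6.92, 7.47 and 7.60 on the NFAT1 shRNA arrays. The controls spanned 0.21, and NFAT1 shRNA 1 was 0.58 above the highest control. The means were 6.23 ± 0.10 and 7.33 ± 0.36 (SD, n = 3), a difference of 1.10 ± 0.18 (SE).

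Arrdc4, an alpha-arrestin close to Txnip in sequence, read 5.40, 6.28 and 6.04 on the controls and 5.98, 7.98 and 8.17 on the NFAT1 shRNA arrays (1426818_at). NFAT1 shRNA 1 lay inside the range of the controls, so the groups overlapped, while the other NFAT1 shRNA arrays were at least 1.70 above control 2. The difference of the means was 1.47 ± 0.58 (SE). The probe set 1424759_at gave 0.95 ± 0.49 (SE), with NFAT1 shRNA 1 at 5.65 between controls 1 and 3.

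**Figure D1:**
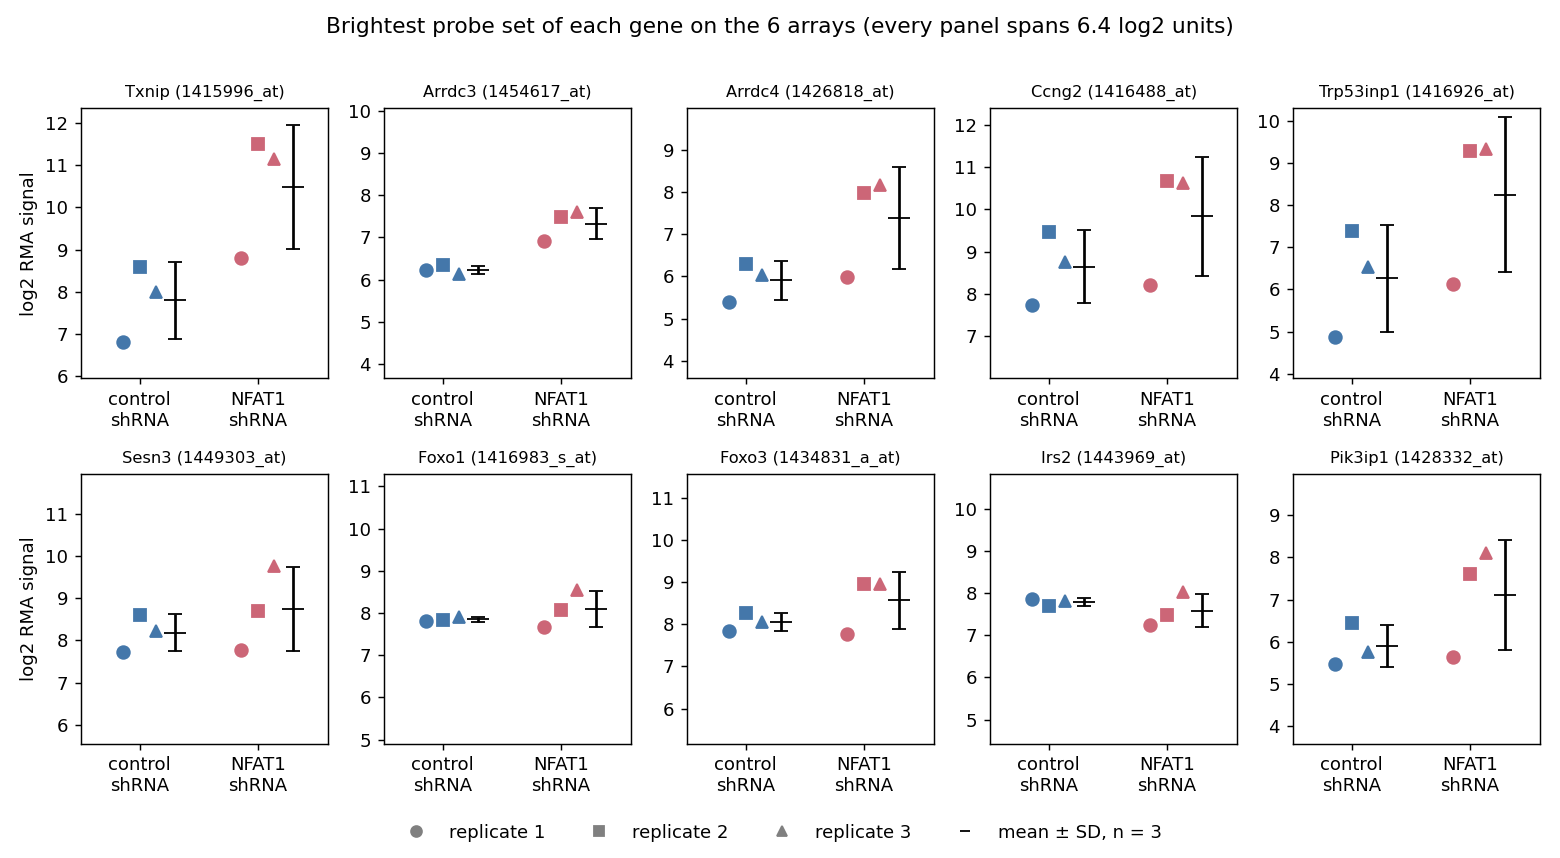
Log2 RMA signal of the brightest probe set of each gene (vertical axis) on the 3 control and 3 NFAT1 shRNA arrays (symbols give the array number; bars are the mean ± SD, n = 3). NFAT1 shRNA 1 (circle) lies among the controls for Arrdc4, Ccng2, Trp53inp1, Sesn3 and Pik3ip1, below them for Foxo1, Foxo3 and Irs2, and above them for Txnip and Arrdc3.

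Of the genes that act in cell cycle arrest and stress, Trp53inp1 had the widest range of signals. Its product promotes p53-dependent arrest and autophagy. On 1416926_at it read 4.87, 7.37 and 6.54 on the controls and 6.14, 9.29 and 9.32 on the NFAT1 shRNA arrays. The controls alone spanned 2.50, with control 2 at 5.66-fold the signal of control 1, and NFAT1 shRNA 1 lay within them. The means were 6.26 ± 1.27 and 8.25 ± 1.83 (SD, n = 3), a difference of 1.99 ± 0.99 (SE), at rank 30 of all probe sets. The second probe set, 1416927_at, read between 3.73 and 3.95 on all arrays, below the array medians, with a difference of 0.02 ± 0.09 (SE), so the pattern of Trp53inp1 rests on 1 probe set.

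Ccng2 encodes cyclin G2, an unusual cyclin that is abundant in resting cells and slows division. Its signal on 1416488_at was 7.73, 9.45 and 8.76 on the controls and 8.20, 10.67 and 10.63 on NFAT1 shRNA 1 to 3. Arrays 2 and 3 of that group were at least 1.17 above control 2, and NFAT1 shRNA 1 was 1.25 below it. The difference of means was 1.19 ± 0.74 (SE) here and 1.23 ± 0.55 (SE) on 1448364_at.

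Sesn3 encodes sestrin 3, which restrains the growth kinase complex mTORC1. On 1449303_at it read 7.74, 8.60 and 8.22 on the controls and 7.76, 8.70 and 9.77 on the NFAT1 shRNA arrays. Only NFAT1 shRNA 3 stood clearly apart, 1.59 above the control mean, and NFAT1 shRNA 2 exceeded control 2 by 0.10. The difference of 0.56 ± 0.49 (SE) became 0.05 without NFAT1 shRNA 3. The probe set 1453313_at had a similar pattern, with 7.26, 7.62 and 8.62 on the NFAT1 shRNA arrays beside 7.08 to 7.65 on the controls.

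On the brightest probe sets the FOXO genes themselves differed by less than Txnip, Arrdc3, Arrdc4, Trp53inp1 and Ccng2, and Foxo3 by about as much as Sesn3. Foxo3 read 7.85, 8.27 and 8.05 on the controls and 7.78, 8.96 and 8.96 on the NFAT1 shRNA arrays (1434831_a_at). NFAT1 shRNA 2 and 3 were 0.69 above the highest control, and NFAT1 shRNA 1 was below the lowest. The difference was 0.51 ± 0.32 (SE), and it was 0.59 ± 0.31 (SE) on 1434832_at. The third Foxo3 probe set, 1450236_at, was dim, with signals from 3.70 to 4.10.

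Foxo1 read 7.80, 7.82 and 7.91 on the controls and 7.67, 8.06 and 8.54 on the NFAT1 shRNA arrays (1416983_s_at), a difference of 0.24 ± 0.21 (SE) that became 0.02 without NFAT1 shRNA 3. The control arrays were within 0.11 of each other, and NFAT1 shRNA 3 alone was more than 0.5 above them. That array was also the highest on 1416981_at (7.32) and 1416982_at (6.92), whose differences were 0.28 ± 0.14 and 0.21 ± 0.15 (SE). On 1416981_at the groups did not overlap, by a margin of 0.0029 between NFAT1 shRNA 1 and control 2. The dim probe set 1456529_at differed by 0.09 ± 0.11 (SE).

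Of the regulators of insulin and PI3K signalling, Pik3ip1 had a higher mean, and Irs2 a lower one by little more than its SE. Pik3ip1, a membrane protein that inhibits PI3K, read 5.48, 6.45 and 5.75 on the controls and 5.63, 7.61 and 8.09 on the NFAT1 shRNA arrays (1428332_at). NFAT1 shRNA 1 lay among the controls and the others at least 1.16 above control 2, with a difference of 1.22 ± 0.63 (SE). The dimmer 1439087_a_at gave 1.15 ± 0.45 (SE).

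Irs2, an adaptor that couples the insulin receptor to PI3K and a classical FOXO target in liver, was the only gene of the 10 with a lower mean. It read 7.85, 7.68 and 7.81 on the controls and 7.25, 7.48 and 8.01 on the NFAT1 shRNA arrays (1443969_at). NFAT1 shRNA 3 was above all controls and the other NFAT1 shRNA arrays below them all, and the difference was -0.20 ± 0.19 (SE). Leaving out NFAT1 shRNA 1 gave -0.03, and leaving out NFAT1 shRNA 3 gave -0.42. Irs2 was highest on NFAT1 shRNA 3, as were the brightest probe sets of Arrdc3, Arrdc4, Trp53inp1, Sesn3, Foxo1 and Pik3ip1. Those of Txnip and Ccng2 were highest on NFAT1 shRNA 2, and that of Foxo3 read 8.96 on both arrays.

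**Figure D2:**
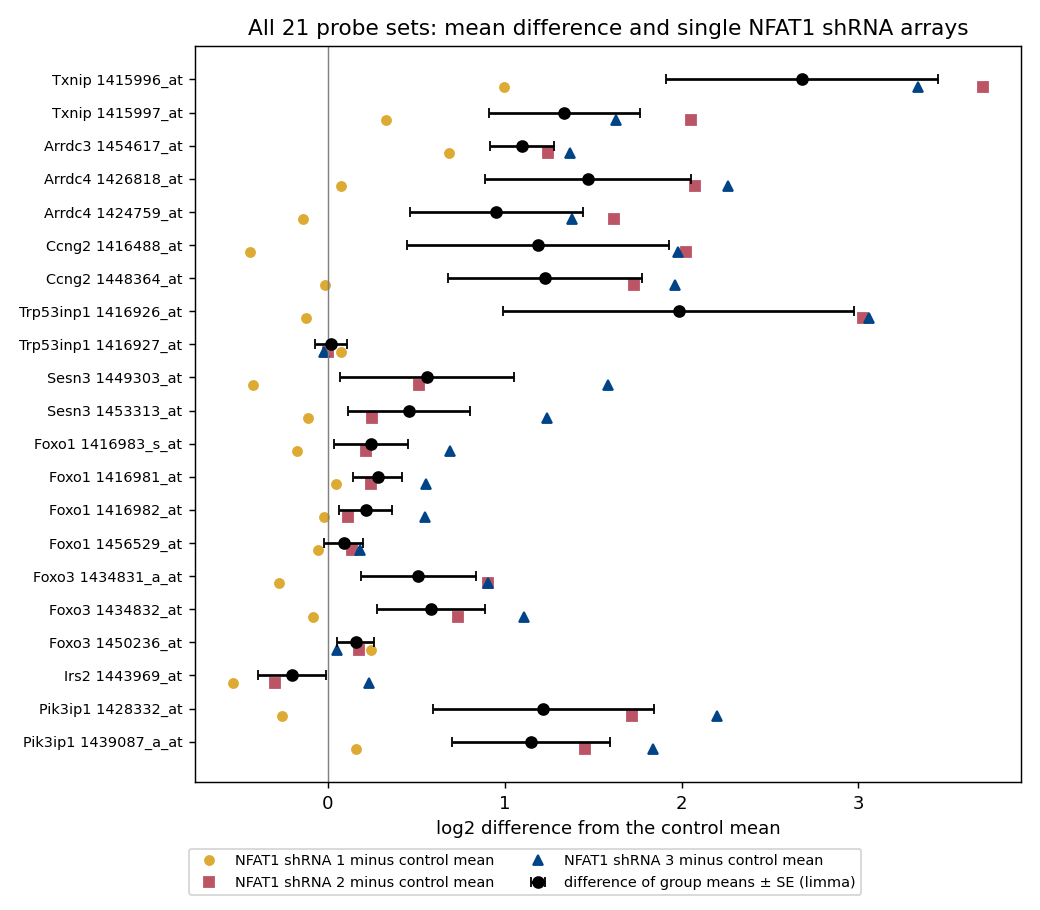
Log2 difference from the control mean (horizontal axis) for all 21 probe sets, with the difference of group means ± SE from limma in black and each NFAT1 shRNA array as a coloured symbol. The mean differences run from -0.20 for Irs2 to 2.68 for Txnip, and NFAT1 shRNA 1 lies near 0 for most probe sets.

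Counted over the 21 probe sets, 20 had a higher mean in NFAT1 shRNA cells, as had 54.2% of all probe sets. The groups did not overlap, with NFAT1 shRNA higher, for 4 of the 21 (both of Txnip, that of Arrdc3 and 1416981_at of Foxo1), where the share of all probe sets is 11.6%. A difference of at least 1 was seen for 9 of the 21 and for 0.706% of all probe sets. At an adjusted p under 0.05 in limma over all probe sets, 0 of the 21 passed, where 0.0755% of all probe sets passed as higher and 0.124% as lower. With the array number as a block, 6 of the 21 passed as higher, beside 1.43% of all probe sets. The labels do not say if the numbers pair the arrays. At an unadjusted p under 0.05, 5 of the 21 were higher, beside 8.03% of all probe sets. This contrast guided the choice of the genes.

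The genes also varied among the control arrays. Control 1 was lowest, control 3 in the middle and control 2 highest for 14 of the 21 probe sets, an order shown by 22.9% of all probe sets. The controls spanned at least 1 unit for 5 of the 21, beside 0.921% of all probe sets. Ccng2 on control 2 was 3.31-fold its signal on control 1, and Txnip 3.42-fold. For Trp53inp1 the range over the controls (2.50) was larger than the difference between the groups (1.99), and the same held for Ccng2 on 1416488_at (1.73 against 1.19).

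Among the NFAT1 shRNA arrays, NFAT1 shRNA 1 was the lowest for 19 of the 21 probe sets, beside 31.1% of all probe sets, and it lay within the range of the controls for 12, beside 41.3% of all probe sets. NFAT1 shRNA 2 and 3 were both above every control for 16 of the 21, beside 22.4% of all probe sets. Over the 10 genes the median deviation from the control mean was -0.22 on NFAT1 shRNA 1, 1.48 on NFAT1 shRNA 2 and 1.78 on NFAT1 shRNA 3, against 0.04, 0.04 and 0.03 over all genes. On the controls the 10 genes read -0.43, 0.39 and 0.05. Without NFAT1 shRNA 1, 12 of the 21 probe sets passed as higher with limma, where 6.23% of all probe sets did, and with array weights 3 did, beside 2.23% of all. The weight was 5.01 for control 3, 0.37 for NFAT1 shRNA 1 and 0.60 to 1.15 for the others, so the weighted controls rest mostly on 1 array. Without NFAT1 shRNA 1 the differences were 3.52 for Txnip, 3.04 for Trp53inp1, 2.17 for Arrdc4, 2.003 for Ccng2, 1.96 for Pik3ip1 and 1.31 for Arrdc3. The 12 also included Foxo3 (0.90 on 1434831_a_at) but no probe set of Foxo1, Sesn3 or Irs2.

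Leaving out 1 array at a time moved the difference of 16 of the 21 probe sets by over 1.5 times in at least 1 case. On the brightest probe sets the differences ran from 0.73 (without control 1) to 2.003 for Ccng2 and from 1.29 (without control 1) to 3.04 for Trp53inp1. They ran from 0.73 (without NFAT1 shRNA 3) to 1.96 for Pik3ip1 and from 0.31 (without NFAT1 shRNA 2 or 3) to 0.90 for Foxo3. Each highest value was the one without NFAT1 shRNA 1. Txnip stayed between 2.17 and 3.52, Arrdc4 between 1.07 and 2.17 and Arrdc3 between 0.97 and 1.31.

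Markers of other cell types were read on the same arrays. Of 6 fibroblast markers, 5 lay at or below the array medians on all arrays, and the summed linear signal of the 6 was 192 to 351 on the controls and 232 to 464 on the NFAT1 shRNA arrays. Of 5 leukocyte markers, 3 lay there, with sums of 145 to 187 and 153 to 317. Of 4 endothelial markers, 3 lay there, with sums of 90.6 to 95.1 and 96.1 to 116, and so did all 3 adipocyte markers, with sums of 29.7 to 34.6 and 33.1 to 39.5. The exceptions with the highest signals were Pdgfra, Cd68 and Kdr. Kdr, an endothelial growth factor receptor gene, read 5.70, 5.71 and 5.55 on the controls and 6.14, 5.98 and 5.77 on the NFAT1 shRNA arrays, without overlap (0.31, adjusted p = 0.266 with limma). The part of these cell types in the values of the 10 genes was not tested.

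**Figure D3:**
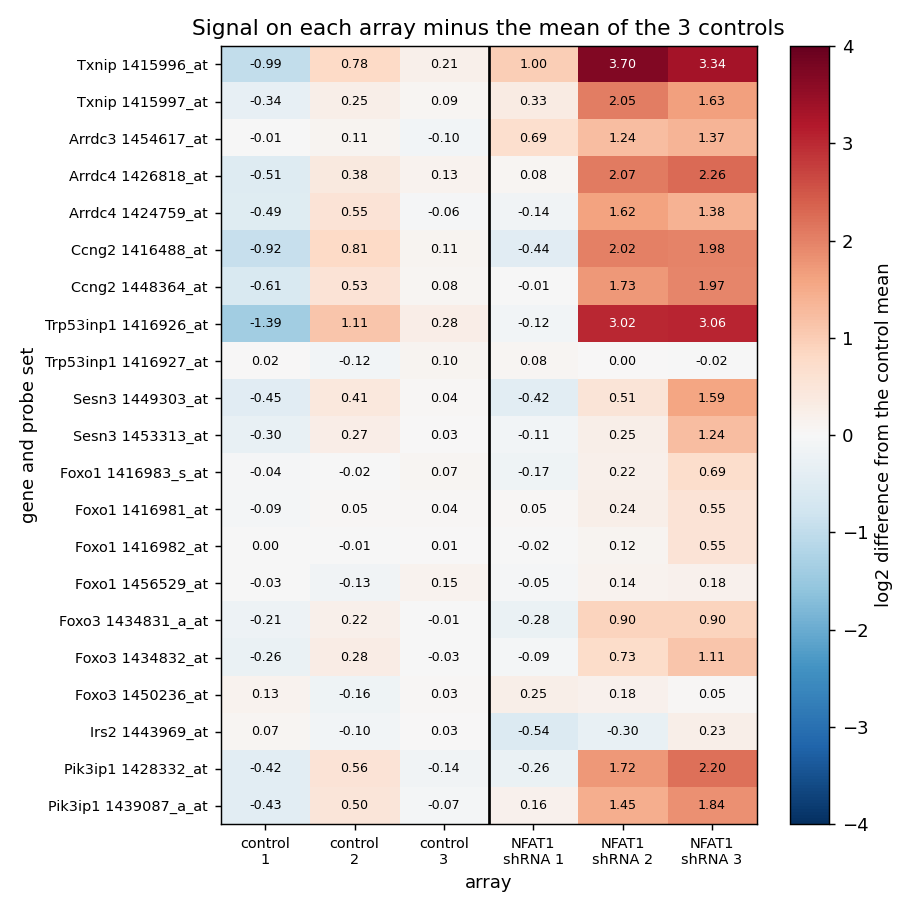
Signal of each probe set (rows) on each array (columns) minus the mean of its 3 control arrays, in log2 units, with red for higher and blue for lower. NFAT1 shRNA 2 and 3 carry most of the red, NFAT1 shRNA 1 is nearer to 0 for most probe sets, and control 1 is low where control 2 is high for Txnip, Arrdc4, Ccng2, Trp53inp1, Sesn3 and Pik3ip1.

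The genes whose profile over the 6 arrays was most like that of Txnip were sought among 89 genes with a mean signal of at least 7 and a range of at least 50% of that of Txnip, leaving out the 10. Likeness was the root-mean-square difference between profiles after each was centred on its own mean. The closest was Abcc3, an efflux transporter, at 0.31, followed by the tetraspanin gene Tspan1 (0.32), the pseudokinase gene Trib2 (0.39), Slfn2 (0.41) and Arhgap18 (0.54). Abcc3 read 5.98, 8.13 and 7.48 on the controls and 7.91, 10.36 and 9.83 on the NFAT1 shRNA arrays. The 10 genes were not held to the limits of signal and range set for the 89. Of the 10, Trp53inp1 was nearest to Txnip, at 0.47, then Arrdc4 (0.69), Ccng2 (0.75) and Pik3ip1 (0.83), while Irs2 was farthest, at 1.71. Profiles were not scaled, so a small range alone sets a gene apart from Txnip. Irs2 ranged over 0.77 and Txnip over 4.70. These likenesses describe 6 arrays and were not tested.

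**Figure D4:**
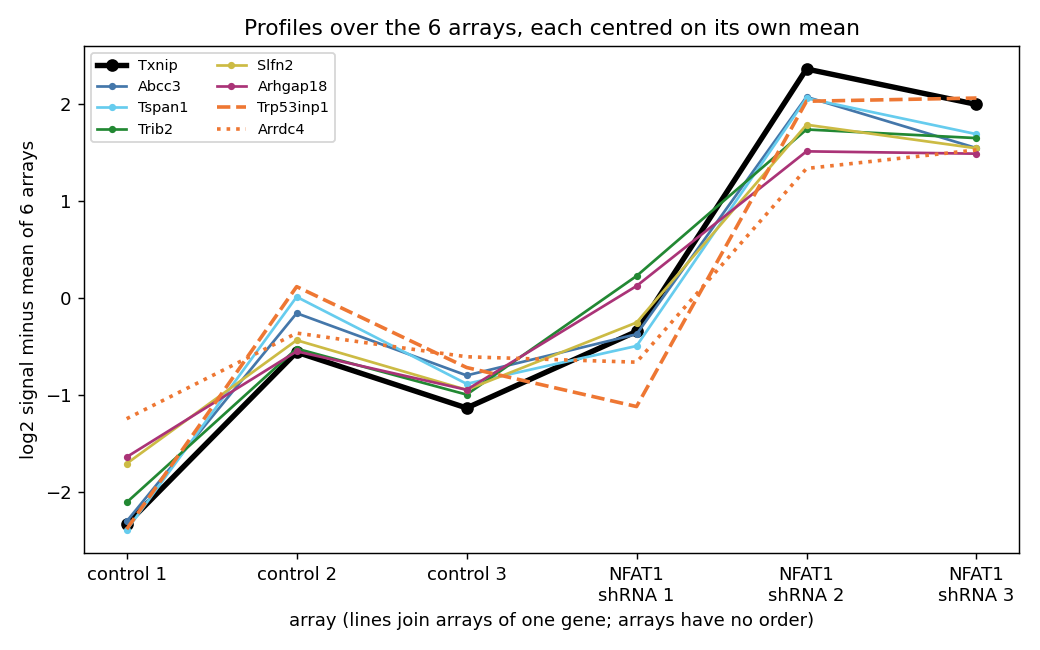
Log2 signal minus the mean of 6 arrays (vertical axis) for Txnip, the 5 genes most like it, Trp53inp1 and Arrdc4, on each array (horizontal axis). All 8 genes are lowest on control 1 and highest on NFAT1 shRNA 2 or 3.

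The other genes of these pathways were taken from lists of textbook genes, with the brightest probe set of each gene, in a limma fit over 18193 genes, of which 0.511% passed at an adjusted p under 0.05 (0.181% higher, 0.330% lower). Over 149 measured genes of the 7 lists, each counted once, 1 passed, the FOXO1 target Klf2, and 32 had an unadjusted p under 0.05, where 17.1% of all genes did. A higher mean was seen for 82 of the 149, beside 59.3% of all genes. Among the paralogs of the 10 genes, 8 of 10 had a higher mean, none passed, and 2 had an unadjusted p under 0.05. Foxo4 differed by 0.52 (adjusted p = 0.350), Sesn1 by 0.45 (adjusted p = 0.253) and Arrdc2 by 0.44 (adjusted p = 0.466). The median difference was 0.35, against 0.04 over all genes.

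Of 36 other FOXO targets, 25 had a higher mean, beside 59.3% of all genes, with a median difference of 0.34. Klf2, a transcription factor that keeps lymphocytes quiescent, rose from 5.67 ± 0.36 to 7.89 ± 0.20 (SD, n = 3; adjusted p = 0.0193 with limma). It read 8.11, 7.81 and 7.74 on NFAT1 shRNA 1 to 3, so unlike most of the 10 genes it was high on NFAT1 shRNA 1. Klf2 no longer passed without control 1, 2 or 3 or without NFAT1 shRNA 2, with adjusted p-values from 0.0738 to 0.187. Of all genes, 0% passed without control 1, 2 or 3, and 0.011% without NFAT1 shRNA 2, so this loss is not particular to Klf2. The ubiquitin ligase gene Fbxo32 read 5.35, 6.98 and 6.22 on the controls and 5.83, 8.38 and 8.81 on the NFAT1 shRNA arrays, low on NFAT1 shRNA 1 as Ccng2 was (1.49, adjusted p = 0.379). The stress gene Gadd45b differed the other way, by -1.63 (adjusted p = 0.161). In this list 7 genes were higher and 2 lower at an unadjusted p under 0.05, where the shares of all genes are 10.1% and 7.01%.

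The list of MondoA partners, the thioredoxin system and glucose use showed no common direction. In it 8 of 16 genes had a higher mean and 8 a lower one, beside 59.3% and 40.7% of all genes, with a median of 0.01. Mlxip, which encodes MondoA, differed by -0.26 (adjusted p = 0.287), Txnrd3, a thioredoxin reductase, by -0.43 (adjusted p = 0.311) and the hexokinase gene Hk1 by 0.41 (adjusted p = 0.278). None of the 16 passed with limma, and 3 had an unadjusted p under 0.05, near the 17.1% of all genes.

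In the PI3K-AKT list 23 of 29 genes had a higher mean (median 0.16), none passed and 5 had an unadjusted p under 0.05, all higher, beside 59.3% of all genes with a higher mean and 10.1% higher at that p. The insulin receptor gene Insr, itself a FOXO target, read 8.14, 9.24 and 8.80 on the controls and 8.50, 9.97 and 9.76 on the NFAT1 shRNA arrays (0.68, adjusted p = 0.443). Igf1r differed by 0.44 (adjusted p = 0.286) and the PI3K regulatory subunit gene Pik3r1 by 0.42 (adjusted p = 0.237). Of 21 FOXO regulators, 14 had a lower mean, beside 40.7% of all genes. None passed, and 2 had an unadjusted p under 0.05, beside 17.1% of all genes. The deacetylase gene Sirt2 differed by 0.64 (adjusted p = 0.330), the ubiquitin ligase subunit gene Skp2 by -0.62 (adjusted p = 0.273) and the AMPK subunit gene Prkaa1 by -0.43 (adjusted p = 0.307).

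In the list of cell cycle exit genes, 20 of 29 had a higher mean, beside 59.3% of all genes, with a median of 0.13. None passed, and the 5 at an unadjusted p under 0.05 were near the 17.1% of all genes. Mxd4, a MYC antagonist, read 4.47, 5.98 and 5.49 on the controls and 5.33, 7.82 and 8.01 on the NFAT1 shRNA arrays (1.74, adjusted p = 0.305). The growth arrest gene Gas1 differed by 0.67 (adjusted p = 0.206) and Lin54, a subunit of the DREAM repressor complex, by -0.72 (adjusted p = 0.267). Of 19 proliferation genes, 18 had a lower mean and none passed, and 8 were lower at an unadjusted p under 0.05, beside 40.7% and 7.01% of all genes. Their median deviation from the control mean was -0.07, -0.47 and -0.56 on NFAT1 shRNA 1 to 3. This median was thus low on the arrays where that of the 10 genes was high, which does not hold for every gene. Ccne2, which encodes a cyclin of the E type, differed by -1.33 (adjusted p = 0.281), the transcription factor gene Mybl2 by -1.22 (adjusted p = 0.270) and the thymidylate synthase gene Tyms by -1.06 (adjusted p = 0.253). The part of proliferation in the values of the 10 genes was not tested.

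**Figure D5:**
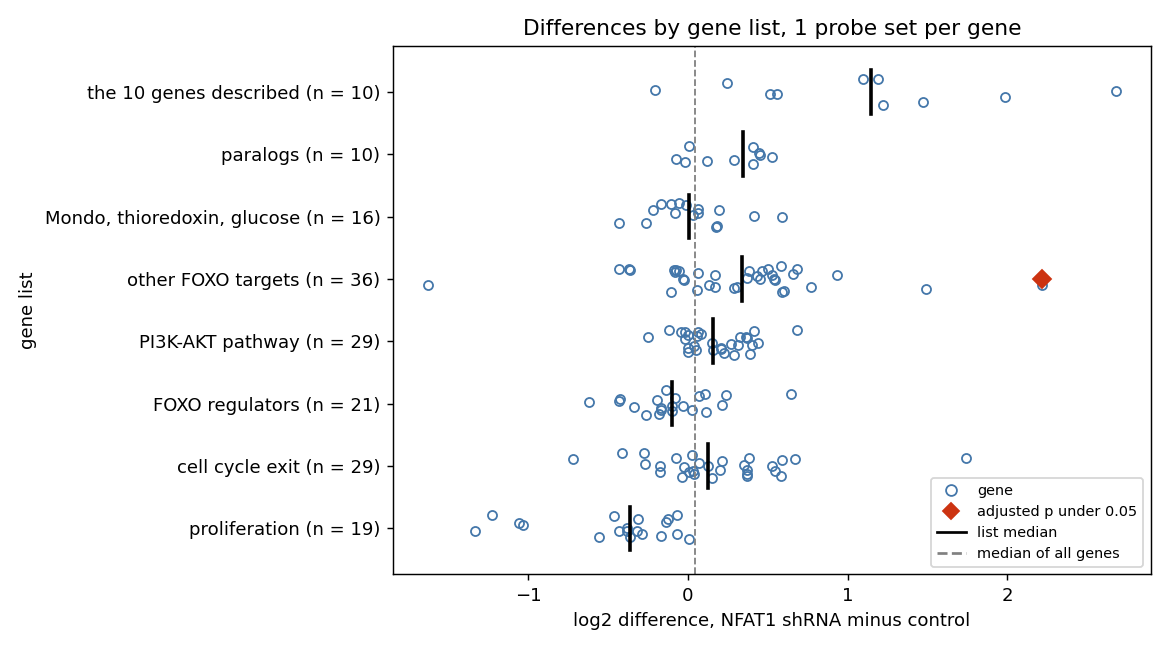
Log2 difference, NFAT1 shRNA minus control (horizontal axis), for each gene of the 8 lists, with list medians as black bars and the median of all genes (0.04) as a dashed line. Klf2 is the only gene past an adjusted p of 0.05, and the medians run from -0.36 for proliferation to 1.14 for the 10 genes, which were chosen on this contrast.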

How the data were processed

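RNA of 6 samples was measured on Affymetrix mouse arrays, 3 per group, and groups and array numbers were taken from the labels. The authors deposited log2 signals from RMA, as the submitters' processing notes name it, with no version given in the sources used here. RMA equalises the arrays' distributions, which can hide a shift that most transcripts share. Platform annotation gave 1 symbol to 34945 probe sets, several to 932 and none to 9160, and 0 symbols changed when matched by gene number to GRCm38.p6.

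All 45037 probe sets entered a linear model (limma 3.58.1, R 4.3.3; lmFit, then eBayes), with no filter and no covariates. Adjusted p-values are those of Benjamini and Hochberg. SE is limma's moderated standard error. For gene lists each gene was read by its brightest probe set over the 6 arrays. All p-values are 2-sided. The fit was tested on simulated data. The genes, lists and alternatives were chosen with earlier results of these data known. Named beyond the 10 genes were list members past the threshold, the 3 largest differences per list (higher group at 6 or more), and the 5 genes most like Txnip. The alternatives were other scaling, a filter on dim signals, a trended and robust prior, array weights, the array number as a block, leaving out arrays, and other choices of probe set. Precision is limited by the number of arrays.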

Additional observations from a re-analysis of the deposited data

How the results depend on the processing

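The number of the 21 probe sets past an adjusted p of 0.05 with limma was 0 in 12 of the 15 other settings, 3 with array weights (2.23% of all probe sets passed as higher), and 0 to 12 on leaving out 1 array, above 0 only without NFAT1 shRNA 1. Without control 1, 2 or 3, without NFAT1 shRNA 2, or without control 3 and NFAT1 shRNA 1 together, 0% of all probe sets passed. The count of 0 there carries no information about the 21. Of the 149 list genes, 45 passed with array weights (18.6% of all genes) and 8 without control 3 and NFAT1 shRNA 1 together (2.24%). On leaving out 1 array 0 to 58 passed, the 58 without NFAT1 shRNA 1 (18.4%). The 0 came without NFAT1 shRNA 2 (0.011% of all genes) or any control (0%). With the array number as a replicate block, 6 of the 21 probe sets passed as higher (both of Txnip and 1 each of Arrdc3, Arrdc4, Ccng2 and Trp53inp1), beside 1.43% of all probe sets, and 8 list genes passed in either direction, beside 4.35% of all genes. The labels do not say if the numbers pair the arrays, and the main fit did not pair them. Deviations from the group means correlated at 0.62, 0.51 and 0.05 for numbers 1, 2 and 3 over all probe sets. At a mean signal of at least 6 these were 0.71, 0.67 and 0.13. Each control correlated best with the NFAT1 shRNA array of its own number, but NFAT1 shRNA 3 correlated best with control 2. Control 3 was near 0 with all of them over all probe sets (-0.02, -0.02 and 0.05), so number 3 cannot decide the pairing. With the block, the SE of Txnip on 1415996_at went from 0.77 to 0.22 (adjusted p = 0.0074 with limma). Its same-number differences were 1.99, 2.92 and 3.13. Of 297 recomputed differences of the 10 genes, 296 moved by less than 1 SD, a wide yardstick here. The sign turned only for the dim 1416927_at of Trp53inp1, in 5 settings.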

Other observations

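Mlxipl, the dim paralog of MondoA known as ChREBP, differed by 0.59 (adjusted p = 0.0892 with limma) and was picked after its values were seen.

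The basal keratin gene Krt14 read 10.67, 10.38 and 10.56 on the controls and 9.38, 7.46 and 8.40 on the NFAT1 shRNA arrays (-2.12, adjusted p = 0.123 with limma). Pdgfra and Cd68, listed as fibroblast and leukocyte markers, were lowest on control 1 and, among the NFAT1 shRNA arrays, on NFAT1 shRNA 1, as Txnip and Ccng2 were. They read 6.30, 7.90, 7.48, 6.82, 8.44 and 7.88, and 6.22, 6.85, 6.55, 6.23, 7.75 and 7.92, on controls 1 to 3 and NFAT1 shRNA 1 to 3. The probe set 1444226_at, given to both Foxo3 and Gm38485, read between 5.18 and 5.49 and was left out.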
